A study of Mus musculus with 16 samples.

Results

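The 10 genes described here encode Ide, the insulin-degrading enzyme, and 9 other metalloproteases or metalloprotease subunits that act on short peptides or targeting sequences: Nrdc, Pitrm1, Pmpca, Pmpcb, Mme, Ece1, Ece2, Thop1 and Nln. They were chosen by name, with Ide put first because its level and its exon profile in RBM45 knockout cells were already known from these data, and they are 10 of the 53333 rows of the gene table and 344 of the 468583 exon bins. All 10 had counts in all 16 libraries, and all passed the filter on low counts in every comparison. The lowest count of any of them in any library was 49 (Mme) and the highest 1392 (Pitrm1).

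RNA from cultured mHiPPoE-2 cells, a transformed hippocampal line of the mouse strain Crl:CFW(SW)-024 kept without treatment, was sequenced after ribosomal RNA was depleted. Each of the 8 groups held 2 libraries. WT cells were unedited. METTL3 KO was a single clonal isolate made with guided Cas9, so that its effect and that of its clone cannot be told apart. The control was 2 clones that received Cas9 with no gRNA, the RBM45 KO was 2 clones made with guided Cas9, and the KO rescue was 2 clones of RBM45 KO cells that carry F-HA-tagged RBM45 with a mutated gRNA site. The labels do not give the knockout clone from which the rescue clones were made. Control clones 1 and 2 are names only, since the column names of the 4 control libraries match no label and were assigned because every other column matched another group, and the numbers of the rescue clones are likewise names only.

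The catalytic members of family M16 share a zinc site and close around their substrates. Ide degrades insulin, amyloid beta and other short peptides in the cytosol and outside the cell, Nrdc (nardilysin) cuts at pairs of basic residues and assists the shedding of membrane proteins, Pitrm1 clears targeting peptides and other peptides in the mitochondrial matrix, and Pmpca and Pmpcb are the subunits of the processing peptidase that removes those targeting sequences. Mme (neprilysin), Ece1 and Ece2 are membrane enzymes of family M13 that degrade neuropeptides and amyloid beta or mature endothelins, and Thop1 and Nln (neurolysin) are oligopeptidases of family M3. RBM45 is an RNA-binding protein, and METTL3 is the catalytic subunit of the enzyme that writes N6-methyladenosine on RNA.

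In the annotation of GRCm38, Ide lies on chromosome 19 at 37268743-37337852 on the minus strand, and its full-length transcript Ide-201 has 24 exons. Intron 11 of that transcript (37298175-37303893, 5719 bp) holds the last exon of the shorter transcript Ide-203 (37301663-37303678, 2016 bp), which begins after a gap of 215 bases from the end of exon 11. A further transcript, Ide-204, reads on from exon 11 into the intron with no splice. These 3 continuations are shown because the counts of the RBM45 KO clones divide at this exon. In each sequence the lower-case letters are the last 15 bases of exon 11 (37303894-37303908) and the capitals are the next 15 bases of that transcript, 5′ to 3′ on the minus strand of chromosome 19, from the GENCODE release 21 transcripts.
Ide-201, spliced to exon 12 (37298160-37298174): gaggacatcattcagAAATGGCAAAATGCT
Ide-203, spliced to its last exon (37303664-37303678): gaggacatcattcagGGCTGCAAAATAAAT
Ide-204, read on into the intron (37303879-37303893): gaggacatcattcagGTAGGATCAAGTCAC
Of the 2958 annotated coding bases of Ide-201, 1434 (48.5%) lie up to the end of exon 11. Continued in that frame, the Ide-203 sequence reaches a TGA stop after 7 codons, starting at base 22 of its last exon, and the Ide-204 sequence reaches a TGA stop after 6 codons, starting at base 19 beyond exon 11. The motif AATAAA, searched on the transcript strand together with ATTAAA, occurs 4 times in the last exon of Ide-203 and 0 times in its last 50 bases. Among all 141767 GENCODE transcripts, 33.7% hold either motif in their last 50 bases.

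The other genes lie on GRCm38 as follows. Nrdc, listed in the annotation as Nrd1 and counted together with the microRNA gene Mir761 inside it, is on chromosome 4 at 109000655-109061777. Pitrm1 is on chromosome 13 at 6548149-6580515, Pmpca on chromosome 2 at 26389339-26397122 and Pmpcb on chromosome 5 at 21737141-21757152. Mme is on chromosome 3 at 63241537-63386030, Ece1 on chromosome 4 at 137862237-137965229, and Ece2 on chromosome 16 at 20611593-20646485, in a row joined with Eef1akmt4 and Gm49333. Thop1 is on chromosome 10 at 81070035-81082559 and Nln on chromosome 13 at 104023057-104109614, Nln on the minus strand and the rest on the plus strand. Genes on the opposite strand overlap Nrdc (Osbpl9), Pitrm1 (Pfkp), Pmpca (Inpp5e), Pmpcb (Gm15715), Ece1 (Gm13012) and Ece2 (Alg3 and Camk2n2), and reads of such partners cannot be told apart because the library kit does not mark strand.

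Totals of the gene table ran from 7193908 to 18751324 counts per library. Levels are CPM, counts relative to a library total scaled by the trimmed mean of M values (TMM). Rbm45 stood at 14.7 CPM ± 1.90 in control, 8.04 ± 2.08 in RBM45 KO and 23.1 ± 2.05 in rescue libraries (n = 4 each, 2 of each clone, with the SD over libraries), and Mettl3 at 3.53 CPM ± 0.254 in METTL3 KO against 10.2 ± 2.03 in WT (n = 2 each, SD). The cells are labelled as neurons, but 3 of 10 neuron markers reached 1 CPM on average (Map2, Syn1 and Tubb3), and Dcx, Stmn2 and Nefl were at 0 in all 16 libraries. All 4 neural progenitor markers (Nes, Sox2, Pax6 and Vim) and 5 of 6 mesenchymal markers did so, against 1 of 5 for astrocytes, 1 of 5 for oligodendrocytes, 2 of 5 for microglia and 0 of 4 for endothelium. In bulk RNA, fewer cells that express a gene and less of its RNA per cell cannot be told apart.

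Levels of different genes were compared per length, as CPM per kb of the bins of coding exons of 1 transcript of each gene (untranslated parts of those exons included), over the 16 libraries. Averaged over all groups, the mitochondrial enzymes Pitrm1 (32.4 CPM per kb ± 7.82, SD, n = 16) and Pmpcb (28.9 ± 4.75) were the most abundant, followed by Nrdc (18.4 ± 3.18), Pmpca (16.1 ± 2.23) and Thop1 (14 ± 3.49). Ide (12.1 CPM per kb ± 5.32) and Mme (10.8 ± 6.42) came next, and Ece1 (8.56 ± 4.27), Nln (6.83 ± 1.01) and Ece2 (2.75 ± 1.2) were the lowest. On this measure Pmpcb, the catalytic subunit of the processing peptidase, was above its partner Pmpca by more than the spread of either. A fragment can count in more than 1 bin, which weighs more where bins are short. Pmpcb had 17 bins in 1615 bp and Pmpca 17 bins in 3135 bp. In gene-table CPM, not divided by length, Pmpca (31.9) was above Pmpcb (23.4). The order of the 10 genes may depend in part on bin length, which was not tested. Neighbours from Nrdc to Nln in this order differed by less than the larger of their SDs, as did Pitrm1 and Pmpcb, while the steps from Pmpcb to Nrdc and from Nln to Ece2 were larger than both SDs. The order differed between groups. Ide (16.6 and 17.7 CPM per kb) was above Thop1 (13.8 and 9.78) in the control clones and level with Pitrm1 in METTL3 KO (17.3 and 17.2), and Mme (3.13) was below Nln (7.01) in WT. Ece2 also had the most intron counts relative to its gene-table counts, a median of 76.3% (range 69.0% to 80.7%). A fragment can count in both an intron and an exon bin, and the Ece2 row joins other genes. This share is therefore not the intronic part of its level. The same median was 23.6% for Ide, with a wide range from 13.4% to 55.6%. Its intron counts include intron 11, which holds the last exon of Ide-203. In replicate 2 of RBM45 KO clone 2 that intron had 110 counts, against 286 for the whole gene.

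Ide stood at 50.6 and 53.0 CPM in WT, 57.7 and 59.6 in METTL3 KO, 54.6 and 52.1 in control clone 1, and 55.7 and 60.8 in control clone 2. It stood at 26.5 and 28.4 CPM in RBM45 KO clone 1, 23.7 and 21.7 in RBM45 KO clone 2, 41.7 and 38.0 in KO rescue clone 1, and 41.3 and 39.8 in KO rescue clone 2. The 4 RBM45 KO libraries were below all 12 others, and the 4 rescue libraries lay between the RBM45 KO libraries and the rest, with no overlap on either side. The fitted log2 changes were -1.15 (SE 0.15) for RBM45 KO against control, 0.67 (SE 0.15) for rescue against RBM45 KO and -0.49 (SE 0.15) for rescue against control. Ide was chosen for this pattern, so these values carry no test, and the last 2 comparisons share clones with the first.

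**Figure D1:**
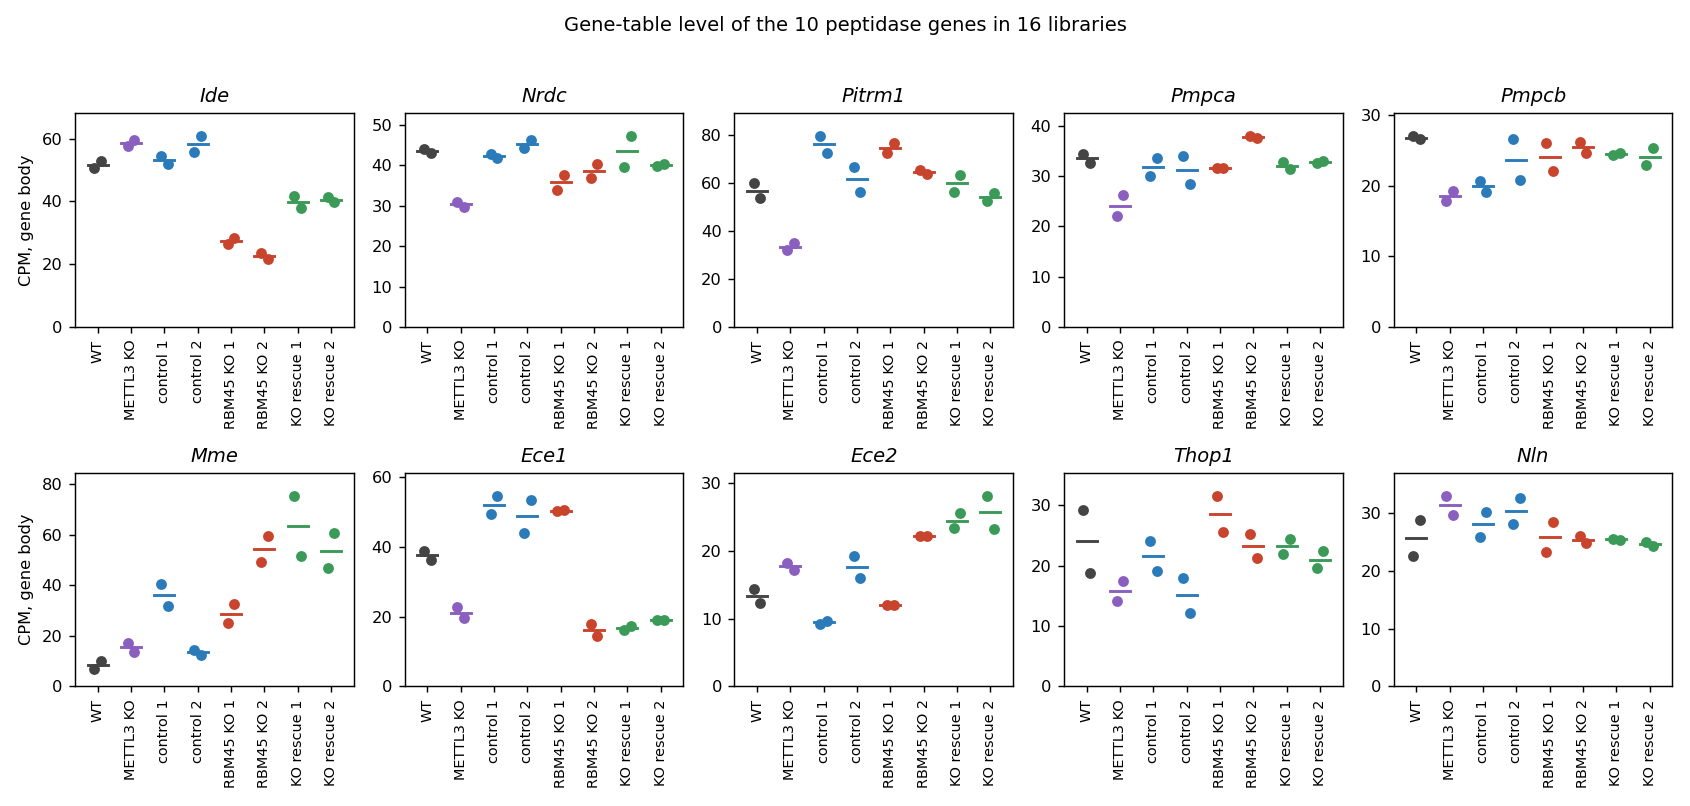
Gene-table level (CPM) of each of the 10 genes in all 16 libraries, 1 panel per gene, with 1 point per library and the 8 groups along the horizontal axis. The 4 RBM45 KO points of Ide lie between 21.7 and 28.4 CPM, below all others, while Mme, Ece1 and Ece2 separate clones of 1 genotype.

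Differences in Ide between clones of 1 genotype were smaller than those between genotypes. Control clone 2 differed from clone 1 by 0.13 (SE 0.12, adjusted p = 0.48), RBM45 KO clone 2 from clone 1 by -0.28 (SE 0.12, adjusted p = 0.164) and KO rescue clone 2 from clone 1 by 0.02 (SE 0.12, adjusted p = 0.979) on the log2 scale, and none of these passed the quasi-likelihood test of edgeR, adjusted after Benjamini and Hochberg. The control clones as a pair differed from WT by 0.11 (SE 0.10, adjusted p = 0.573, the same test). In coding exon bins alone the group means of Ide were 16.6 and 17.7 CPM per kb in the control clones, 5.11 and 4.06 in the RBM45 KO clones and 10.1 and 10.8 in the rescue clones. The drop was deeper on this scale than in the whole gene body.

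The depth of the drop depended on position along Ide. Over the bins of exons 1 to 11, summed levels were 33.6, 31.8, 38.5 and 36.6 CPM in the control libraries, 16.8, 19, 15.2 and 14.3 in the RBM45 KO libraries, and 23.9, 19.9, 23.2 and 24.2 in the rescue libraries. Over exons 12 to 23, they were 38.8, 32.8, 36.3 and 34.0 CPM in control, 4.51, 5.86, 4.69 and 2.73 in RBM45 KO, and 21.7, 18.2, 18.7 and 23.2 in rescue. Groups did not overlap on either side of the intron, and the knockout libraries were further from control after it than before it. The ratio of the later to the earlier exons was 1.02 ± 0.104 in control, 0.270 ± 0.0560 in RBM45 KO and 0.897 ± 0.0662 in the rescue libraries (n = 4 each, SD). It was 1.45 and 0.893 in the WT libraries and 1.08 and 1.06 in METTL3 KO. The log2 change of this ratio from control to RBM45 KO was -1.91.

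Every exon bin with at least 40 control counts showed the same division. The 12 bins before the intron kept 0.251 to 0.591 of their control level in RBM45 KO (median 0.466), and the 14 bins after it kept 0.0944 to 0.190 (median 0.121), so the sides did not overlap. In KO rescue the bins before the intron stood at 0.485 to 0.746 of control (median 0.649) and those after it at 0.553 to 0.642 (median 0.570), and the sides overlapped. Rescue bins were thus below control at both ends of the gene, with the lower median after the intron, and exon 11 stood at 0.746 of control against 0.616 for exon 12.

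The bin in intron 11 that covers most of the last exon of Ide-203 (37301663-37303649) moved the other way. It held 10, 8, 7 and 7 counts in the control libraries, 55, 92, 80 and 102 in the RBM45 KO libraries, 48, 28, 31 and 37 in the rescue libraries, 3 and 1 in WT, and 8 and 14 in METTL3 KO. Its level was 0.552 CPM ± 0.129 in control, 7.07 ± 0.939 in RBM45 KO and 2.33 ± 0.243 in the rescue libraries (n = 4 each, SD), with no overlap between these groups. Rescue libraries lay between control and knockout, and above every control library. The log2 change from control to RBM45 KO in bin CPM was 3.68. Relative to the exons before it, the bin stood at 0.0157 ± 0.00302 in control, 0.438 ± 0.0776 in RBM45 KO and 0.102 ± 0.0107 in rescue.

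The 215 bases between exon 11 and that last exon, a stretch found in Ide-204 but in neither Ide-201 nor Ide-203, held few counts. They had 0, 2, 0 and 2 counts in control, 4, 5, 6 and 11 in RBM45 KO, and 6, 1, 3 and 4 in rescue. Summed over the 4 libraries of each genotype and per 100 bases, this stretch held 1.86 counts in control, 12.1 in RBM45 KO and 6.51 in rescue, and the last-exon bin 1.61, 16.6 and 7.25. The density of the stretch was thus close to that of the last exon, but a fragment could be counted in both, which weighs more in the shorter bin. At this depth the relative shares of Ide-203 and Ide-204 were not resolved.

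The introns of Ide were counted in a separate table from the same libraries, although a fragment can count in both an intron and an exon bin. The 10 introns before intron 11 summed to 3.27 CPM ± 0.991 in control, 2.65 ± 0.622 in RBM45 KO and 3.40 ± 1.06 in rescue, and these ranges overlapped. The 12 introns after it summed to 6.43 CPM ± 2.00 in control, 2.25 ± 1.29 in RBM45 KO and 4.74 ± 0.233 in rescue (n = 4 each, SD). The later introns in the knockout libraries (1.51 to 4.19 CPM) lay below every control library (4.73 to 9.16 CPM). The ratio of later to earlier introns was 1.97 ± 0.168 in control, 0.817 ± 0.274 in RBM45 KO and 1.52 ± 0.567 in rescue. The ratio was lower in the knockout for introns as it was for exons, with no overlap between the RBM45 KO and control libraries.

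**Figure D2:**
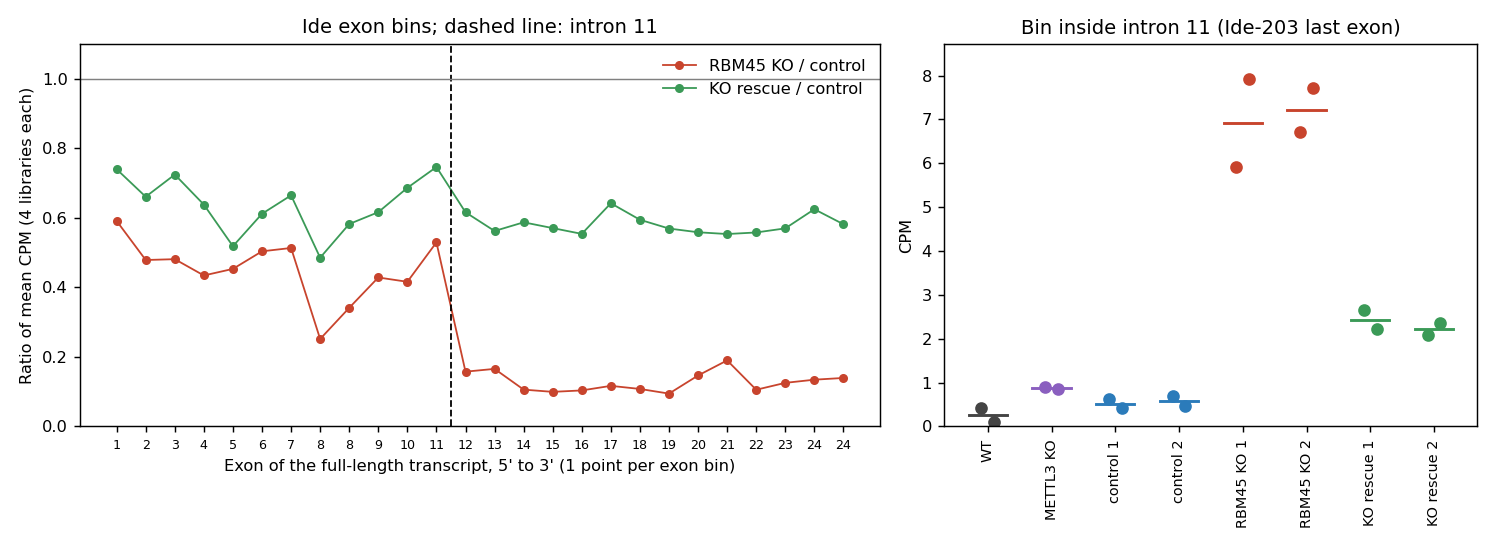
Level of each Ide exon bin in RBM45 KO and KO rescue relative to control (linear axis), in order from the first to the last exon, and the level of the intron 11 bin by library. Bins after intron 11 sit at a median of 0.121 of control in RBM45 KO against 0.466 before it, and the rescue bins lie between 0.485 and 0.746 on both sides.

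The same scan was run along every gene, to ask whether an early end occurred in the other peptidases. For each cut between exon bins, the log2 ratio of counts after to counts before the cut was compared between 1 RBM45 KO clone and 1 control clone, and the cut whose weakest pair fell most was kept. In Ide this was the cut just after the intron 11 bin, with changes from -2.61 to -2.11 over the 4 pairs of clones. A fall of 1 or more in all 4 pairs occurred in 15 of 8607 genes (0.174%), Ide included, and in 0 of the 9 other peptidases. At a fall of 0.5 or more, 200 genes (2.32%) qualified and again 0 of the 9.

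The other peptidases showed shallow changes at their strongest cut. In Pitrm1 the mean change was -0.49 (pairs -0.89 to -0.09), in Ece2 -0.40 (-0.96 to 0.16) and in Nrdc -0.31 (-0.58 to -0.05). Ece1 (-0.25), Thop1 (-0.24), Nln (-0.24), Pmpca (-0.11), Mme (-0.03) and Pmpcb (0.18) were weaker. The lowest mean change at any cut is a different measure, with a median of -0.187 over all genes. On that measure Mme stood at -0.25, Nrdc at -0.34 and Pmpca at -0.12, and the others kept their values. The pairs of Pitrm1 and Ece2 differed widely among themselves. With at least 50 counts on each side, the Pitrm1 value moved to another cut and was -0.07 (pairs -0.13 to -0.01), and that of Nln was -0.09. A single exon bin test on the 9 genes gave 0 of 199 bins past the adjusted threshold for RBM45 KO against control (edgeR's quasi-likelihood test relative to the rest of the gene), where 0.00285% of all 140500 bins passed, and 0 bins had an unadjusted p under 0.05, as 0.639% of all bins did. The bin with the smallest p was exon 12 of Pmpcb (21756815-21756890, 76 bp) at 0.33 on the natural log scale (adjusted p = 1.0, edgeR). For rescue against RBM45 KO the count was 0 of 199 (background 0.000712%), with 3 bins at an unadjusted p under 0.05 (0.82% of all bins). The smallest p belonged to exon 1 of Thop1 (81070127-81070158, 32 bp) at -0.70 on the natural log scale (adjusted p = 1.0, edgeR).

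**Figure D3:**
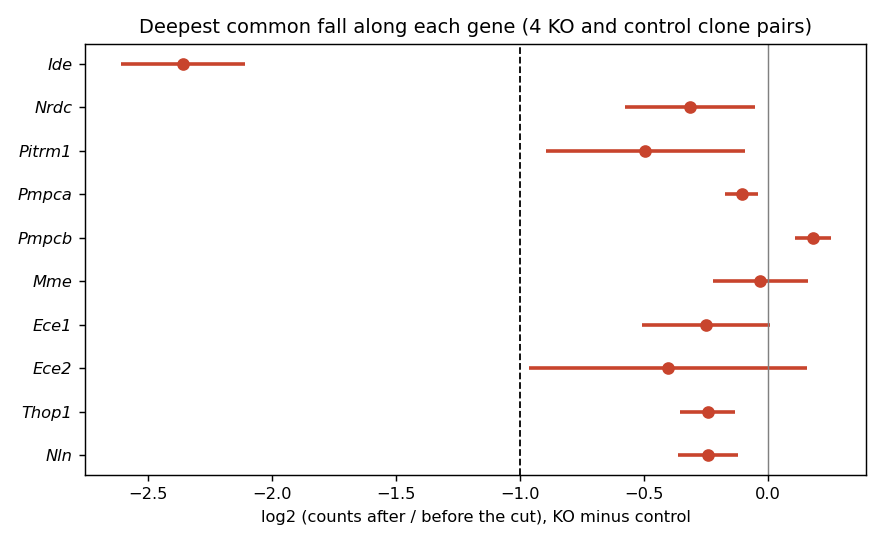
Change along the gene at the strongest cut (log2 change of counts after over counts before the cut, RBM45 KO against control) for the 10 genes. For each gene a point marks the mean over the 4 pairs of clones, and a line runs from the lowest to the highest pair. Ide lies at -2.61 to -2.11, and no other gene has all its pairs below -0.5.

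Transcripts other than the one used for the coding level took different shares of the exon counts. In Ide, bins outside Ide-201 held a mean of 24.1% and 30.5% of exon-bin counts in the RBM45 KO clones, 5.78% and 5.44% in the rescue clones, 1.4% and 1.3% in the control clones, 0.846% in WT and 1.67% in METTL3 KO. Over all 16 libraries the same share ran from 3.2% to 6.95% in Nrdc, 12% to 20.2% in Mme and 2.05% to 4.66% in Nln. It stayed under 4% in Pitrm1, Pmpca, Pmpcb, Ece1 and Thop1, and ran from 23.9% to 63.5% in Ece2, whose row holds other genes. No gene but Ide and Ece2 exceeded 20.2% in any library.

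None of the 9 peptidases other than Ide passed the test in the RBM45 comparisons, and no test is given for Ide. The 6 clones were fitted as 6 samples, and 0 of the 9 genes were called in RBM45 KO against control, rescue against RBM45 KO or rescue against control, where 0.0% of 16867 genes were called in each. At an unadjusted p under 0.05 the counts over all genes were 983, 1239 and 2620, and DESeq2 called 4, 45 and 456. In data simulated for the first comparison with the same dispersion for every gene, 31 of 100 genes changed 2-fold and 100 of 100 changed 4-fold were called. The smallest adjusted p over all genes in the real fit of that comparison was 0.754 (edgeR), so these rates do not carry over to it. Changes of the sizes below, and larger ones, may go uncalled. Where all 16 libraries were fitted instead, with the spread between libraries, 4 of the 9 passed in each comparison: Ece1, Ece2, Mme and Thop1 in RBM45 KO against control, and Ece1, Ece2, Mme and Pitrm1 in the other 2 comparisons. That fit called 15.5%, 18% and 34.3% of all genes in the 3 comparisons.

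Besides Ide, Nrdc was the 1 peptidase whose RBM45 KO and control libraries did not overlap. It stood at 42.8, 41.9, 44.3 and 46.4 CPM in control and 34.0, 37.7, 37.0 and 40.3 in RBM45 KO, which do not overlap, and at 39.7, 47.3, 39.8 and 40.3 in rescue, which overlap both. The change from control to RBM45 KO was -0.23 (SE 0.13, adjusted p = 0.755, edgeR). Libraries of the 2 genotypes did not overlap for 7.16% of the 13701 genes with a mean of 1 CPM or more, and among the 10 peptidases Ide and Nrdc were such genes.

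None of the 3 mitochondrial enzymes passed the test. Pitrm1 stood at 68.8 CPM ± 9.87 in control, 69.6 ± 6.08 in RBM45 KO and 56.9 ± 4.54 in rescue (n = 4 each, SD), Pmpca at 31.5 ± 2.74, 34.6 ± 3.56 and 32.4 ± 0.663, and Pmpcb at 21.8 ± 3.31, 24.7 ± 1.91 and 24.3 ± 1.02. The log2 changes from control to RBM45 KO were 0.04 (SE 0.17) for Pitrm1 (-0.11 without control clone 2 and -0.07 without RBM45 KO clone 1), 0.15 (SE 0.14) for Pmpca and 0.20 (SE 0.15) for Pmpcb. The rescue libraries of Pitrm1 (52.4 to 63.2 CPM) lay below all of its RBM45 KO libraries (63.8 to 76.7), by -0.32 (SE 0.17, adjusted p = 0.676, edgeR), a separation found in 16.5% of genes between these groups.

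The endothelin-converting enzyme Ece1 divided by clone. It stood at 49.5 and 54.8 CPM in control clone 1 and 44.2 and 53.4 in control clone 2, and at 50.3 and 50.6 in RBM45 KO clone 1, among the controls. RBM45 KO clone 2 held 17.8 and 14.5 CPM, among the rescue clones at 16.3, 17.4, 18.9 and 19. The difference between the RBM45 KO clones was -1.64 (SE 0.14, adjusted p = 3.43e-07, edgeR), and Ece1 was 1 of 3 peptidases called between them, where 14.1% of genes were called. The change from control to RBM45 KO was therefore -0.62 with an SE of 0.47, and from control to rescue -1.53 (SE 0.48, adjusted p = 0.279, edgeR), with no overlap of libraries. DESeq2 called Ece1 in rescue against control, as did edgeR when either RBM45 KO clone was left out of the fit. Without RBM45 KO clone 1, the change from RBM45 KO to rescue was 0.13 in place of -0.91. The 6 mesenchymal markers together moved in the same way in the RBM45 KO clones, at 1759 to 1970 CPM in clone 1 and 674 to 689 in clone 2, and stood at 629 to 770 in the rescue clones, 1409 to 1536 in control clone 1 and 609 to 893 in control clone 2, where Ece1 was not lower. The 5 oligodendrocyte markers, nearly all of it Cspg4 with Olig2 at 0 in 15 of 16 libraries, summed to 89.4 to 110.4 CPM in control, 112 to 130.1 in RBM45 KO clone 1, 72.4 to 74.5 in clone 2 and 47.7 to 57.5 in rescue, and so followed Ece1 in these clones. The 5 astrocyte markers, of which only Slc1a3 reached 1 CPM on average, summed to 16.6 to 25.8 CPM in control clone 2. They summed to 2.29 to 2.68 in control clone 1, where Ece1 was alike, and to 2.04 to 2.24 in RBM45 KO clone 1. In RBM45 KO clone 2 and rescue they summed to 0.512 to 0.909. Neuron markers were lower in RBM45 KO clone 2 (96.1 to 106 CPM) than in clone 1 (153 to 160). Endothelial markers were higher there (0.838 to 0.985 against 0.345 to 0.430), and those of microglia and neural progenitors overlapped. The part of these marker sets in the Ece1 values was not tested.

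Mme, the plasma membrane enzyme that cleaves neuropeptides and amyloid beta, varied most. It stood at 40.5 and 31.8 CPM in control clone 1 and 14.5 and 12.6 in control clone 2, at 25.0 and 32.6 in RBM45 KO clone 1 and 49.1 and 59.5 in clone 2, and at 75.4, 51.8, 46.7 and 60.5 in rescue. Control clone 2 was below clone 1 by a log2 change of -1.42 (SE 0.22, adjusted p = 0.000155, edgeR), and RBM45 KO clone 2 was above clone 1 by 0.91 (SE 0.21, adjusted p = 0.00534), which did not pass without replicate 1 of clone 1 or replicate 2 of clone 2. The change from control to RBM45 KO was 0.77 (SE 0.49) and from control to rescue 1.27 (SE 0.49, adjusted p = 0.307, edgeR), the rescue libraries lying above every control library. The clones of 1 genotype thus differed by as much as the genotypes.

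Ece2 showed the same kind of division. It stood at 9.27 and 9.60 CPM in control clone 1 and 19.2 and 16 in clone 2, at 12 and 12.1 in RBM45 KO clone 1 and 22.2 and 22.2 in clone 2, and at 23.3, 25.6, 28.1 and 23.2 in rescue. Clone 2 was above clone 1 by 0.89 among controls (SE 0.14, adjusted p = 0.00027) and by 0.88 among RBM45 KO clones (SE 0.15, adjusted p = 0.000347, both edgeR). The rescue libraries lay above all RBM45 KO and all control libraries, by 0.52 (SE 0.38) and 0.89 (SE 0.38, adjusted p = 0.33, edgeR). The change from control to RBM45 KO was 0.36 (SE 0.38), and -0.14 without RBM45 KO clone 2. Separations of rescue from control, seen here in Ece2, Mme, Ece1, Nln and Ide, occurred in 25.1% of genes. In all, 2 of 10 peptidases (Mme and Ece2) were called between the control clones (background 19.6%), 3 of 10 (Ece1, Ece2 and Mme) between the RBM45 KO clones (14.1%) and 0 of 10 between the rescue clones (2.29%), where DESeq2 also called 0 of 10 and 1768 of all genes had an unadjusted p under 0.05 in edgeR.

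Neither oligopeptidase passed the test. Thop1 stood at 18.3 CPM ± 4.88 in control, 25.9 ± 4.25 in RBM45 KO and 22.1 ± 2.00 in rescue, with overlapping libraries, and its change from control to RBM45 KO was 0.52 (SE 0.22, adjusted p = 0.754, edgeR). Nln stood at 29.2 CPM ± 2.85, 25.6 ± 2.20 and 25.0 ± 0.557 in the same order (n = 4 each, SD), a change of -0.19 (SE 0.13) in RBM45 KO. Its rescue libraries (24.3 to 25.5 CPM) lay just below the lowest control library (25.9).

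The pattern of Ide across the 8 groups was also compared with that of every gene with a mean of at least 2 CPM, by Pearson's r of the log2 group means over 8 groups. Of 10436 genes, the 4 most like Ide were Nfe2l3 (r = 0.981), a transcription factor, Hltf (0.953), a DNA translocase, Ralgapa2 (0.938), a GTPase-activating subunit, and Spag1 (0.932). Nfe2l3 had group means of 3.24 and 3.49 CPM in the control clones, 1.36 and 1.17 in the RBM45 KO clones and 2.23 and 2.85 in the rescue clones. Hltf stood at 14.5 and 16.8, 12.3 and 11.2, and 13.3 and 14.4 CPM in the same order, so its range was narrower than that of Ide. Among the peptidases Nln (r = 0.660) was the most like Ide and Thop1 (r = -0.689) the least. These correlations describe 8 groups that share clones and depth, and high values arise among 10436 genes.

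Of the 10 peptidases, 6 differed between METTL3 KO and WT. They passed the quasi-likelihood test of edgeR after Benjamini-Hochberg adjustment, 5 lower and 1 higher, where 22.9% of all 16223 genes passed. All 4 M16 genes other than Ide fell, as did Ece1, while Mme rose and Ide did not pass. This compares 2 libraries of 1 clone with 2 of WT, so the spread is between libraries. Without replicate 1 of WT, or without replicate 1 of METTL3 KO, the 3 genes that passed were Ece1, Nrdc and Pitrm1. Without replicate 2 of METTL3 KO, Nrdc and Pmpcb did not pass, and without replicate 2 of WT, Thop1 passed too. The libraries of the 2 groups did not overlap for any of the 10 genes, nor for 64.5% of all genes, so nothing is read from that separation.

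Pitrm1, Pmpca and Pmpcb were each lower in METTL3 KO, whereas Mipep, another enzyme that trims mitochondrial targeting sequences, held 8.63 and 9.58 CPM in WT and 9.32 and 10.5 in METTL3 KO. Pitrm1 went from 59.8 and 53.9 CPM in WT to 31.9 and 35.1 in METTL3 KO, a log2 change of -0.76 (SE 0.13, adjusted p = 0.00075, edgeR). Pmpca went from 34.5 and 32.6 to 22.1 and 26.2 CPM (-0.46, SE 0.13, adjusted p = 0.018). Pmpcb went from 27.0 and 26.6 to 17.9 and 19.3 CPM (-0.52, SE 0.14, adjusted p = 0.0144). Both subunits of the processing peptidase were thus lower than in WT. Set against the control clones, Pmpca in METTL3 KO lay below all 4 libraries (28.4 to 34.1 CPM), and Pmpcb overlapped them (19.1 to 26.6 CPM).

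Nrdc fell from 44.1 and 43.1 CPM in WT to 31.0 and 29.7 in METTL3 KO (-0.52, SE 0.13, adjusted p = 0.0067, edgeR), below every other library of the series. Ece1 fell from 39 and 36.4 to 22.7 and 19.7 CPM (-0.83, SE 0.14, adjusted p = 0.000591), the largest change of the 10 on the lower side. Mme rose from 7.04 and 10.1 to 17.3 and 13.8 CPM (0.82, SE 0.25, adjusted p = 0.0255), and all 4 of these libraries lay below both libraries of control clone 1. Clones that received Cas9 with no gRNA also differed from WT. The control clones were above WT by 1.34 in Mme (SE 0.22, adjusted p = 0.000817) and 0.42 in Ece1 (SE 0.12, adjusted p = 0.0337, both edgeR). These were 2 of 10 peptidases, where 8.99% of genes were called. Ece1 was no longer called there without either WT replicate in turn, without replicate 2 of control clone 1 or without replicate 2 of control clone 2, nor from exon bins only, while Mme was called each time.

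Ide (58.7 CPM ± 1.35 in METTL3 KO against 51.8 ± 1.67 in WT, n = 2 each, SD) changed by 0.18 (SE 0.12, adjusted p = 0.284, edgeR). Thop1 held 29.2 and 18.9 CPM in WT and 14.2 and 17.5 in METTL3 KO (-0.57, SE 0.22, adjusted p = 0.0681). Ece2 held 14.4 and 12.4 against 18.2 and 17.2 CPM (0.41, SE 0.15, adjusted p = 0.0573), and Nln 22.6 and 28.7 against 33.0 and 29.7 (0.28, SE 0.15, adjusted p = 0.19). None of these 4 passed. Summed neural progenitor markers were also lower in METTL3 KO (567 to 607 CPM) than in WT (907 to 1039), as were those of astrocytes (2.81 to 2.92 against 8.63 to 14.3), endothelium (1.1 to 1.35 against 2.19 to 3.45) and microglia (37.7 to 37.9 against 43.2 to 59.5). Neuron markers were slightly higher (106 to 113 against 100.2 to 103), and mesenchymal (532 to 571 against 449 to 650) and oligodendrocyte markers (43.8 to 45.0 against 42.1 to 50.3) overlapped. Averaged over the 16 libraries, most of the progenitor sum was Vim (966 CPM), most of the astrocyte sum Slc1a3 (4.58) and most of the microglia sum Cx3cr1 (37.9). No endothelial marker reached 1 CPM on average. These sums therefore do not describe whole marker sets, and their part in the peptidase values was not tested.

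**Figure D4:**
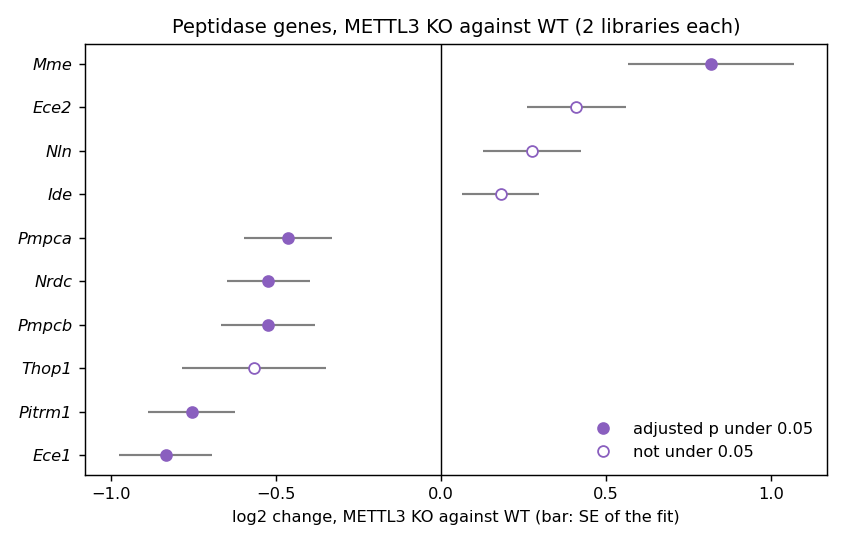
Log2 change from WT to METTL3 KO of the 10 genes with its standard error, filled where the adjusted p passed 0.05. The 5 genes that fell lie between -0.83 and -0.46, Mme lies at 0.82 and Ide at 0.18.

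An early end like that of Ide in RBM45 KO was not found in METTL3 KO. A fall of 1 or more along the exon bins occurred in 7 of 6851 genes (0.102%) and in none of Ide and the 8 other peptidases that could be scanned (Ece2 had too few bins). At 0.5 or more, 2.96% of genes qualified, Nrdc among them, with a mean of -0.81 (pairs -1.04 to -0.59) at the cut after its first exon bin (109000770-109001164). With at least 50 counts on each side, Nrdc stood at -0.45 (pairs -0.60 to -0.30) at another cut. The intron 11 bin of Ide held 0.266 CPM ± 0.234 in WT and 0.875 ± 0.0330 in METTL3 KO. Its change relative to the gene was 1.15 on the natural log scale (adjusted p = 1.0 over all bins, edgeR). Of the other 9 genes, 0 of 173 bins passed (background 0.0137%), and 8 had an unadjusted p under 0.05, as 2.85% of all bins did. Of these 8, 6 were among the 37 bins of Nrdc, 1 was in Pitrm1 and 1 in Pmpca. The smallest p of the 173 belonged to exon 14 of Nrdc (109039757-109039778, 22 bp), at -1.27 on the natural log scale (adjusted p = 1.0, edgeR).

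Other genes of the same biology were followed in 6 lists of 72 genes. In RBM45 KO against control, 0 of the 59 tested passed, and the same held for both rescue comparisons. The list member with the smallest p in RBM45 KO against control was Uqcrc1 for the peptidase relatives (0.28), App for amyloid precursor processing (0.31), Clu for amyloid uptake (1.00), Akt1 for insulin signalling (0.34), Mmp14 for other peptidases (0.36) and Xpnpep3 for mitochondrial proteases (-0.25), none of which passed.

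In METTL3 KO against WT, 16 of 60 tested list genes passed (26.7%), 10 higher and 6 lower, a share near the 22.9% of all genes. Among 4 peptidase relatives, Uqcrc1 (-0.76, adjusted p = 0.00247, edgeR) and Uqcrc2 (-0.49, adjusted p = 0.00865), core subunits of respiratory complex III that descend from the processing peptidase, fell, with a list median of -0.627 against 0.014 for all genes. Uqcrc1 went from 42.1 and 45.6 CPM in WT to 27.6 and 24.3 in METTL3 KO, and Uqcrc2 from 29.5 and 27.0 to 19.8 and 20.3. Set against the control clones, Uqcrc1 in METTL3 KO lay below all 4 libraries (41.0 to 53.6 CPM). Uqcrc2 overlapped control clone 2 (20.6 and 18.6 CPM) but not clone 1 (29.5 and 30.4). Like Nrdc, Pitrm1, Pmpca and Pmpcb, Uqcrc1 and Uqcrc2 belong to family M16. Among 12 mitochondrial proteases, Oma1 (0.86, adjusted p = 0.013) and Immp1l (0.65, adjusted p = 0.0161) rose while Htra2 (-0.64, adjusted p = 0.00652) and Afg3l2 (-0.48, adjusted p = 0.0195) fell, and 3 rose and 2 fell in all (median 0.144).

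Of 12 amyloid precursor genes tested, 2 rose and 0 fell. Bace2, a relative of the beta-secretase, was 1 of them (adjusted p = 0.0113, edgeR), with 0 and 1 counts in the WT libraries and 16 and 13 in METTL3 KO. Of 6 uptake genes 2 fell, among them the lipid carrier Apoe (-2.92, adjusted p = 0.00542), from 8.48 and 1.6 CPM in WT, which differ widely, to 0.449 and 0.730. Of 11 insulin and IGF genes 2 rose, the clearance receptor Igf2r (0.47, adjusted p = 0.00621) and the adaptor Irs1 (0.64, adjusted p = 0.014). Of 15 other peptidases 3 rose and 0 fell, namely Mmp2 (4.06, adjusted p = 1.48e-05, from 5 and 5 counts in WT to 124 and 110), Anpep (2.78, adjusted p = 0.00313, from 4 and 1 counts to 17 and 37) and Mmp14 (0.54, adjusted p = 0.0112). The list medians were 0.130, -0.029, 0.059 and 0.208 in the order amyloid processing, uptake, insulin signalling and other peptidases. Genes of these lists were also called in comparisons with no difference in RBM45 or METTL3 genotype, with 6 of 60 (10.0%, against 8.99% of all genes) for control clones against WT, 19 (31.7%, against 19.6%) between control clones and 12 (20%, against 14.1%) between RBM45 KO clones.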

How the data were processed

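The authors deposited raw fragment counts in a gene table, an exon-bin table and an intron table. Per the file headers, all were made with featureCounts 1.6.3, the first 2 of them from Ensembl 98 (GRCm38). The gene table counts whole gene bodies, introns included, and 1397 of its rows join overlapping genes. A fragment counts in each feature that holds at least 0.1 of it, on the strand of the feature, per the file headers, although the kit does not mark strand, per the labels. Alignment used HISAT2 2.1.0, per the submitters' processing notes. Names and exons are from GENCODE mouse release 21.

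RBM45 comparisons were fitted with edgeR 4.0.16 (R 4.3.3) on the summed counts of 6 clones, the others on 16 libraries in 8 groups, with the quasi-likelihood test, TMM scaling and Benjamini-Hochberg adjustment at 0.05 over all genes kept by filterByExpr (16867 and 16223). Exon bins (mean of 10 counts or more) were tested relative to the rest of their gene, and these relative changes are given as natural logs. Cuts needed 20 counts on each side, with 0.5 added before the log, and likeness to Ide used log2(CPM + 0.5). Nothing in the labels says that replicate libraries came from separate cultures, so p-values cover no more than the spread among these samples, which may be technical. DESeq2 1.42.0 and other settings were alternatives. The fits were tested on data simulated with the same dispersion for every gene or bin. Of genes changed 2-fold in METTL3 KO against WT, 21 of 100 were found. Of bins changed 8-fold, 192 of 200 were found, with 59 false calls among 34875 bins.

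All 10 genes were named. In other lists, up to 4 genes per list that passed, or else the 1 with the smallest p, were named, and for bins of the other genes those that passed or else the smallest p. The genes, lists and scan were chosen with earlier results of these data known. Values of some genes that this rule names are not reported here.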

Additional observations from a re-analysis of the deposited data

Results flagged for a closer look

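Nrdc stood at 47.3 CPM in replicate 2 of KO rescue clone 1, while the other 3 rescue libraries held 39.7, 39.8 and 40.3 CPM. The gap to the nearest of them was larger, relative to the range of the 4 libraries, than Dixon's 95% critical value for 4 values allows. It was 1 of 36 groups of 4 libraries examined, and chance gives such a gap in about 1 in 20 groups.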

How the results depend on the processing

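Over 911 recomputed values, 899 kept their direction and 12, all log2 changes of single genes, reversed. Leaving out 1 clone, Pitrm1 in RBM45 KO against control ran from -0.11 (without control clone 2; -0.07 without RBM45 KO clone 1) to 0.22 and Ece2 from -0.14 (without RBM45 KO clone 2) to 0.88. In rescue against RBM45 KO, Pmpca ran from -0.24 to 0.02 and Pmpcb from -0.09 to 0.01 (both highest without RBM45 KO clone 2), and Ece1 from -1.52 to 0.13 (without RBM45 KO clone 1). Leaving out 1 library, Ece2 in control clones against WT ran from -0.16 to 0.06 (without WT replicate 1; 0.02 without replicate 2 of control clone 2), and Ece1 between control clones from -0.24 to 0.03 (without replicate 1 of clone 2). Between rescue clones, Mme ran from -0.49 to 0.05 (without replicate 1 of clone 1) and Ece2 from -0.08 (without replicate 1 of clone 2) to 0.20, and Ece2 was -0.18 from exon bins only.

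Counts of peptidases called were 4 in each RBM45 comparison when 16 libraries were fitted, against 0 (15.5%, 18% and 34.3% of all genes), and DESeq2 gave 1 (Ece1) in rescue against control, where leaving out 1 clone gave 0 to 1. For METTL3 KO against WT, leaving out 1 library gave 3 to 7 against 6: 3 without WT replicate 1 or METTL3 KO replicate 1. For control clones against WT, exon bins only gave 1 against 2, and leaving out 1 library gave 1 to 3. Between control clones and between RBM45 KO clones it gave 2 to 3 each. A fall of 0.5 gave 1 other gene (Nrdc) in METTL3 KO, against 0. Of the 5 genes most like Ide, 2 stayed when a mean of 10 CPM was required. The log2 change of the intron 11 bin ran from 3.56 to 3.81 and that of the exon ratio from -1.99 to -1.78 when 1 library was left out.

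Deviations of same-numbered libraries correlated at 0.035 to 0.365 over the 15 pairs of groups without rescue, 11 of them above 0.1, and at -0.225 to 0.004 over the 13 pairs with a rescue group. The numbers of the control and rescue libraries are names only, and not every pair was above 0.1, so the libraries were not taken as paired. With the replicate number as a block, 7 of 10 peptidases passed in METTL3 KO against WT (Ece2 added, 24.7% of all genes), 2 in control clones against WT (10.8%), and 4 in each RBM45 comparison of 16 libraries (16.9%, 19.8% and 35.8%). With at least 50 counts on each side of a cut, the change along Pitrm1 in RBM45 KO was -0.07, along Nln -0.09, and along Nrdc in METTL3 KO -0.45. The depth limits the intron and 215-base counts of Ide.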
